A study of Mus musculus with 12 samples.

Results

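The transcription factor gene Nfe2l2, its repressor Keap1 and 8 antioxidant genes that NRF2 is known to drive (Nqo1, Hmox1, Gclc, Gclm, Txnrd1, Srxn1, Slc7a11 and Gsr) were followed in 12 mouse hearts. The 10 genes were taken by symbol from a table of 25171 loci, as a pathway chosen with earlier results of these data known, and all 10 passed the filter on low counts in every comparison. NRF2, the protein of Nfe2l2, is a stress sensor that is held in the cytoplasm and sent for degradation by KEAP1 as part of a cullin 3 ubiquitin ligase. When oxidants or electrophiles modify KEAP1, or when the autophagy receptor p62 competes for it, NRF2 enters the nucleus, pairs with a small MAF protein and binds antioxidant response elements. Its targets make glutathione, reduce thioredoxin, degrade haem and supply NADPH, and in the heart they limit damage from mitochondrial oxidants.

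All mice carried NOTCH2NLC with 98 GGC repeats, placed at the Rosa26 site behind a stop sequence that Cre removes. EIIa-tg mice (3 hearts, 30 days old) had EIIa-Cre, which is active throughout the body. EIIa-ctl mice (3 hearts, 30 days old) were littermates without this Cre, so that an effect of the Cre and one of the transgene cannot be told apart. Myh6-tg mice (3 hearts, 90 days old) are described as carrying Myh6-creERT2, an inducible Cre made under a cardiomyocyte promoter. They were given 3 injections of tamoxifen at 75 mg/kg from day 60. Myh6-ctl mice (3 hearts, 90 days old) were littermates that received corn oil only, and their label gives the same transgenic genotype, so that an effect of tamoxifen and one of the induced transgene cannot be told apart. The genotype labels of EIIa-tg replicates 2 and 3 read e3a and e4a in place of e2a, and their titles place them in the EIIa-tg group. The transgene itself was not analysed here, so its level could not be set beside the NRF2 targets.

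Between 38343106 and 50969834 reads were counted per heart. Values are given as normalised CPM, in which counts are divided by a library size scaled with TMM over the 12 hearts, and 3 counts correspond to between 0.0589 and 0.0782 CPM before that scaling. The protocol text names brain as the tissue of extraction, whereas all 8 cardiomyocyte markers were detected in every group and summed to between 9260 and 50712 normalised CPM. Replicate 1 of each group had between 4224 and 7307 counts on 4 Y-linked genes and the other hearts had at most 2, so each group held the same mix. Esr1, the receptor gene part of which is built into creERT2, had between 1031 and 2331 normalised CPM in Myh6-ctl hearts but between 1.00 and 2.52 in Myh6-tg hearts. Its levels in EIIa hearts were at most 1.23, and why Myh6-tg hearts did not share the level of the Myh6-ctl hearts was not tested. Mitochondrially encoded genes took between 31.8% and 38.3% of the counts in Myh6-ctl and between 15.5% and 18.6% in Myh6-tg hearts. The Myh6 results are given by the group labels, and whatever lies behind the Esr1 difference cannot be told apart from tamoxifen and the transgene. Myh6-tg replicate 1 also stood apart from replicates 2 and 3 and is shown separately where it decides a value. EIIa-tg replicate 2 stood apart from replicates 1 and 3, with cardiomyocyte markers summing to 36604 normalised CPM against 21121 and 20712.

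Transgenic hearts were set against the controls of the same model with edgeR's quasi-likelihood test, fitted on the whole table. A gene was called at a Benjamini-Hochberg adjusted p under 0.05 over all genes tested, and the stricter limits for a differentially expressed gene (DEG) were an adjusted p below 0.01 with a log2 fold change of 1 or more, up or down. In EIIa-tg hearts 6 of the 10 genes were called higher and 0 lower, where 8.65% of 14908 tested genes were called higher. In Myh6-tg hearts 7 were called higher and 0 lower, where 8.96% of 15298 tested genes were called higher. The same 6 genes (Hmox1, Gclc, Gclm, Txnrd1, Srxn1 and Gsr) were called in both models, and Slc7a11 was added in Myh6-tg hearts. The median log2 fold change of the 10 genes was 0.75 in EIIa-tg and 1.62 in Myh6-tg hearts, against 0.02 and 0.03 for all tested genes. Because RNA came from heart tissue and not from sorted cells, fewer cells of a type and less RNA per cell cannot be told apart.

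**Figure D1:**
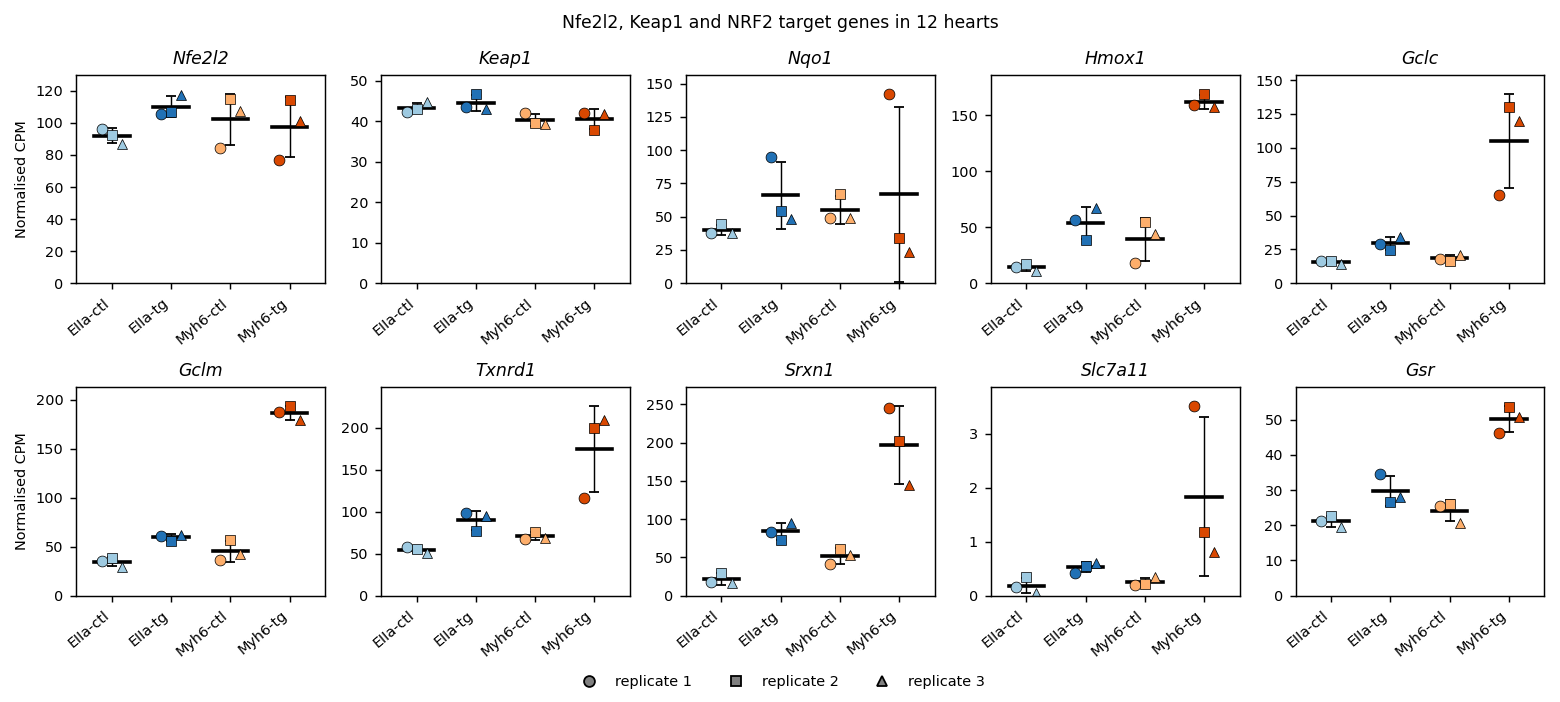
Normalised CPM (vertical axis, linear and starting at 0) of the 10 genes in each of the 12 hearts, grouped along the horizontal axis, with replicate 1, 2 and 3 as circles, squares and triangles, the mean as a horizontal line and the SD (n = 3) as error bars. For 7 genes, Hmox1, Gclc, Gclm, Txnrd1, Srxn1, Slc7a11 and Gsr, all Myh6-tg hearts lie above the other 9 hearts. The share of all genes that do so was not counted, and against Myh6-ctl hearts alone 20.6% of tested genes were higher without overlap. Nfe2l2 and Keap1 stay in a narrow range and Nqo1 splits the Myh6-tg group.

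The core of the antioxidant response element, TGACNNNGC, was searched on both strands in RefSeq promoters of GRCm38.p6, from 250 bases before to 50 bases after each start. Of the 10 genes 7 had an entry, and 4 of these had a match, compared with 12.4% of 32851 promoters and 14.0% of 27025 genes. The matches are shown on the strand of the gene with 8 bases on each side, because they are the letters through which NRF2 and a small MAF protein are known to act, and capitals mark the 9 matched letters. Positions are counted from 0 at the RefSeq start. The match of Nfe2l2 reads forward (-240 to -232), and those of Gclm (-134 to -126), Txnrd1 (-92 to -84, at another of its starts) and Srxn1 (28 to 36) read on the opposite strand, so that they end in GTCA here. The windows lie at chr2:75704887-75704911, chr3:122245415-122245439, chr10:82859106-82859130 and chr2:152105544-152105568. A match is a description of these letters and not a bound site. Keap1, Nqo1 and Slc7a11 had an entry without a match, and elements outside these 300 bases were not searched. Hmox1, Gclc and Gsr had no entry.
Nfe2l2: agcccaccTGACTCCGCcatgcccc
Gclm: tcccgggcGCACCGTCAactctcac
Txnrd1: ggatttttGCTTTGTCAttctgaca
Srxn1: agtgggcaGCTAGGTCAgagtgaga

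Nfe2l2 (ENSMUSG00000015839, chr2:75675513-75704641 of GRCm38, reverse strand) encodes NRF2. Its level was 96.2, 92.6 and 87.0 normalised CPM in the EIIa-ctl hearts and 106, 107 and 118 in the EIIa-tg hearts. All 3 EIIa-tg hearts lay above the 3 controls, but the log2 fold change of 0.26 (SE 0.09) was not called (edgeR, adjusted p = 0.0782). Limma on filtered FPKM values called it, with 0.44 at a pseudocount of 1 and 0.45 at 0.1 (limma adjusted p = 0.0315 and 0.0318). The median of all genes also moved there, to 0.16 and 0.20. In Myh6-ctl hearts it had 84.4, 115 and 107 normalised CPM and in Myh6-tg hearts 77.2, 114 and 101, so the groups overlapped and replicate 1 was the lowest of both. The log2 fold change of -0.07 (95% interval -0.56 to 0.43, edgeR adjusted p = 0.853) became 0.32 on the FPKM scale with a pseudocount of 1, where the median of all genes also moved, to 0.34. The difference between the 2 models, -0.33 (interval -0.82 to 0.16), was not called either (edgeR adjusted p = 0.462).

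Keap1 (ENSMUSG00000003308, chr9:21229730-21239361, reverse strand), the repressor, was the steadiest of the 10 genes, with between 37.8 and 46.9 normalised CPM in all 12 hearts. The mean was 43.4 ± 1.19 (SD, n = 3) in EIIa-ctl against 44.5 ± 2.05 in EIIa-tg hearts, and 40.3 ± 1.48 in Myh6-ctl against 40.6 ± 2.41 in Myh6-tg hearts. Neither model moved it beyond the spread between hearts in normalised CPM, with log2 fold changes of 0.03 (95% interval -0.17 to 0.24) and 0.01 (-0.33 to 0.35). On the FPKM scale transgenic hearts lay above their own controls. EIIa-ctl hearts had 11.1 to 11.9 against 13.2 to 14.3 in EIIa-tg, and Myh6-ctl hearts 9.45 to 12.1 against 13.3 to 15.6 in Myh6-tg hearts. The median of all genes moved there too. Over all settings Keap1 reached at most 0.25 and 0.39 and was never called. The Myh6 value changed sign with DESeq2 and with RLE factors, to -0.01 in each.

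Both subunits of glutamate-cysteine ligase, the rate-limiting enzyme of glutathione synthesis, rose in both models. Gclc (ENSMUSG00000032350, chr9:77754535-77794485, forward strand), the catalytic subunit, had 16.4, 16.2 and 14.1 normalised CPM in EIIa-ctl and 28.9, 24.9 and 34.2 in EIIa-tg hearts. In Myh6-ctl hearts it had 17.9, 16.6 and 20.8, and in Myh6-tg hearts 65.0, 130 and 120. All transgenic hearts lay above all controls, and the lowest Myh6-tg heart, replicate 1, was still well above every other heart. The control groups nearly met in normalised CPM and overlapped on the FPKM scale, with up to 4.34 in EIIa-ctl and from 3.91 in Myh6-ctl hearts. The log2 fold change was 0.91 (SE 0.14, edgeR adjusted p = 0.0160) in EIIa-tg and 2.51 (SE 0.29, edgeR adjusted p = 0.00325) in Myh6-tg hearts.

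Gclm (ENSMUSG00000028124, chr3:122245557-122270732, forward strand), the modifier subunit, which lowers the feedback of glutathione on the enzyme, was tightly spread within each transgenic group. It had 35.4, 38.3 and 29.4 normalised CPM in EIIa-ctl and 60.9, 55.5 and 62.0 in EIIa-tg hearts. Myh6-ctl hearts had 36.1, 57.2 and 42.5 and Myh6-tg hearts 187, 194 and 179. The log2 fold changes were 0.79 (SE 0.12, edgeR adjusted p = 0.0160) and 2.04 (SE 0.22, edgeR adjusted p = 0.00247). Transgenic hearts lay above their own controls in both models, and Myh6-ctl replicate 2 reached the range of the EIIa-tg hearts.

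Slc7a11 (ENSMUSG00000027737, chr3:49892526-50443614, reverse strand), the cystine importer xCT that feeds this synthesis, was near the limit of detection. Its counts were 7, 13 and 2 in EIIa-ctl and 17, 28 and 27 in EIIa-tg hearts, whereas Myh6-ctl hearts had 9, 8 and 18 and Myh6-tg hearts 165, 54 and 43. Every transgenic heart exceeded its own controls, and Myh6-tg replicate 1 had the highest count by a wide margin. The log2 fold change in Myh6-tg hearts was 2.85 (SE 0.71, edgeR adjusted p = 0.0306), and when replicate numbers were blocked it was 2.59 and not called (adjusted p = 0.0549). In EIIa-tg hearts the change of 1.49 (95% interval -0.06 to 3.05) was not called (edgeR adjusted p = 0.157).

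Gsr (ENSMUSG00000031584, chr8:33652523-33698163, forward strand) encodes glutathione reductase, which regenerates reduced glutathione with NADPH. Its levels were 21.3, 22.6 and 19.4 normalised CPM in EIIa-ctl and 34.7, 26.6 and 28.1 in EIIa-tg hearts, whereas Myh6-ctl hearts had 25.6, 26.2 and 20.7 and Myh6-tg hearts 46.2, 53.7 and 50.7. No transgenic heart overlapped its controls. Gsr changed least among the called genes, by 0.49 on the log2 scale (SE 0.13, edgeR adjusted p = 0.0374) in EIIa-tg and 1.06 (SE 0.17, edgeR adjusted p = 0.00851) in Myh6-tg hearts.

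Txnrd1 (ENSMUSG00000020250, chr10:82833951-82897712, forward strand) encodes the cytosolic thioredoxin reductase. It had 57.7, 55.5 and 50.3 normalised CPM in EIIa-ctl and 98.2, 77.1 and 94.5 in EIIa-tg hearts, whereas Myh6-ctl hearts had 67.0, 76.1 and 68.8 and Myh6-tg hearts 116, 200 and 210. The 4 groups did not overlap in normalised CPM, whereas on the FPKM scale Myh6-ctl replicate 3 and EIIa-tg replicate 2 both had 23.5. How many of all genes had 4 groups without overlap was not counted. Myh6-tg replicate 1 was nearer to the EIIa-tg hearts than to replicates 2 and 3 of its own group. Its log2 fold changes were 0.72 (SE 0.11, edgeR adjusted p = 0.0166) and 1.31 (SE 0.25, edgeR adjusted p = 0.0142).

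Srxn1 (ENSMUSG00000032802, chr2:152105516-152111376, forward strand) encodes sulfiredoxin, which restores over-oxidised peroxiredoxins, and with Hmox1 it had the largest change in EIIa-tg hearts among the 10 genes. Its normalised CPM was 18.0, 29.9 and 16.2 in EIIa-ctl and 83.0, 72.9 and 95.5 in EIIa-tg hearts, whereas Myh6-ctl hearts had 40.9, 61.3 and 53.4 and Myh6-tg hearts 246, 202 and 144. The groups formed 4 steps without overlap, EIIa-ctl, Myh6-ctl, EIIa-tg and Myh6-tg from low to high. The share of all genes with such steps was not counted. The change was 1.97 on the log2 scale (SE 0.23, edgeR adjusted p = 0.0135) in EIIa-tg and 1.93 (SE 0.26, edgeR adjusted p = 0.00504) in Myh6-tg hearts.

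Hmox1 (ENSMUSG00000005413, chr8:75093621-75100589, forward strand) encodes haem oxygenase 1, which opens the haem ring and releases iron. It had 14.1, 17.2 and 11.3 normalised CPM in EIIa-ctl and 56.1, 38.3 and 66.7 in EIIa-tg hearts, whereas Myh6-ctl hearts had 18.2, 54.8 and 44.0 and Myh6-tg hearts 159, 169 and 158. The Myh6-tg hearts were close together and far above all others, whereas the Myh6-ctl hearts were spread and overlapped the EIIa-tg hearts. The log2 fold changes were 1.91 (SE 0.22, edgeR adjusted p = 0.0135) and 2.05 (SE 0.37, edgeR adjusted p = 0.0121). Macrophages are a known source of Hmox1, and 10 macrophage markers summed to between 510 and 783 normalised CPM in EIIa-ctl and 1079 and 1418 in EIIa-tg hearts, and their part in the rise was not tested.

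Nqo1 (ENSMUSG00000003849, chr8:107388225-107403206, reverse strand), a quinone reductase often used as a readout of NRF2, was called by edgeR in neither model, although its log2 fold change in EIIa-tg hearts was close to that of Txnrd1. In EIIa-ctl hearts it had 37.9, 44.6 and 37.9 normalised CPM and in EIIa-tg hearts 95.1, 54.6 and 48.6. All EIIa-tg hearts lay above their controls, but the change of 0.71 (SE 0.23) was not called by edgeR (adjusted p = 0.0674), while DESeq2 called it (0.72, adjusted p = 0.0126). So did limma on filtered FPKM values (0.83 with a pseudocount of 1, limma adjusted p = 0.0348) and edgeR without EIIa-tg replicate 2 (0.83, adjusted p = 0.0408). In Myh6-ctl hearts it had 49.2, 67.2 and 49.2, and in Myh6-tg hearts 143, 33.7 and 23.8.

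The Myh6-tg hearts were thus split, with replicate 1 above all 3 controls and replicates 2 and 3 below all of them. Over the 3 hearts the log2 fold change was 0.27 (95% interval -1.14 to 1.68, edgeR adjusted p = 0.795). Without Myh6-tg replicate 1 it was -0.94 and was called lower (edgeR adjusted p = 0.0251), and with replicates 2 and 3 of each group only it was -1.02 (adjusted p = 0.0394). In the same replicate 1 the summed cardiomyocyte markers were 29956 normalised CPM against 12383 and 9260 in replicates 2 and 3. The macrophage markers were 2547 against 1194 and 1145, and the fibroblast markers 2119 against 4102 and 4564. The cardiomyocyte sum of replicate 1 was mostly Actc1 (11695) and Tnnt2 (9675). Tnnt2 and Ryr2 lay above all Myh6-ctl hearts there and Actc1 among them, whereas Myh6, Tnni3, Myl2, Myl3 and Pln lay below all of them. Replicate 1 was also the Myh6-tg heart with Y-linked counts, as it was in every group, and the part of these differences in the split was not tested. In EIIa-tg hearts replicate 1 was likewise the highest for Nqo1, and without it the log2 fold change was 0.36.

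**Figure D2:**
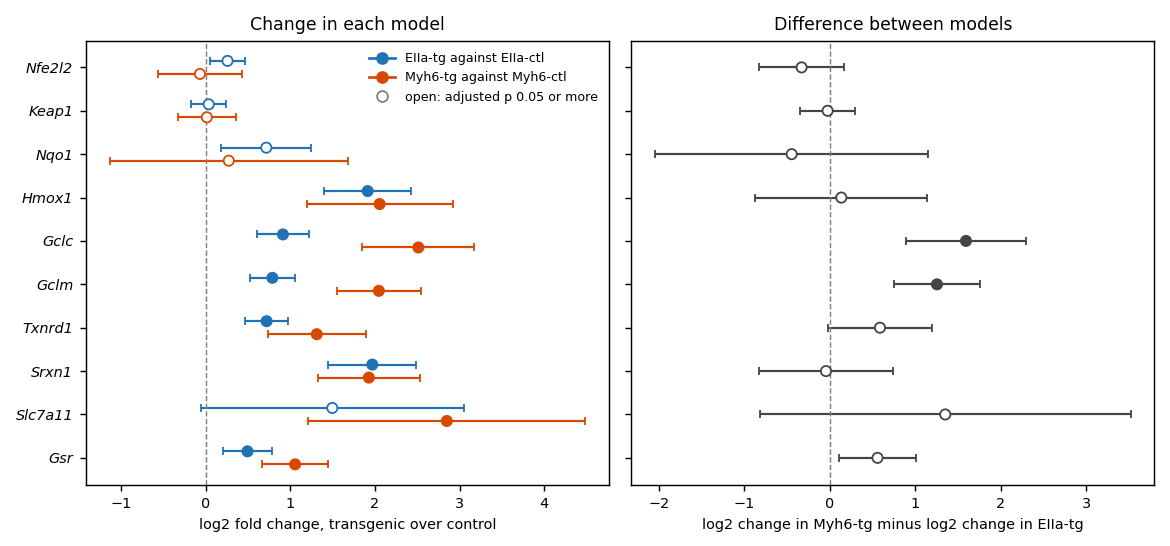
Log2 fold changes (horizontal axis) of the 10 genes with 95% intervals from edgeR, on the left for EIIa-tg (blue) and Myh6-tg (orange) hearts against their own controls and on the right for the change in Myh6-tg minus the change in EIIa-tg hearts. Filled points had an adjusted p under 0.05, and the right panel has 2 of them, Gclc at 1.59 and Gclm at 1.25.

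By the stricter DEG limits 0 of the 10 genes passed in EIIa-tg hearts with edgeR, where 0% of all genes did and 8 of the 10, against 34.9% of all genes, had an unadjusted p under 0.05, while DESeq2 called 2 (Hmox1 and Srxn1) among 836 genes in all. In Myh6-tg hearts 4 passed (Gclc, Gclm, Srxn1 and Gsr), where 1.92% of all genes were DEGs with a higher level, and DESeq2 called 7 among 2137 genes in all. The number of genes called in EIIa-tg hearts fell from 6 to 0 without EIIa-ctl replicate 1, without EIIa-ctl replicate 3 or without EIIa-tg replicate 1 (edgeR, 8, 6 and 8 with an unadjusted p under 0.05), and to 2, Hmox1 and Srxn1, without EIIa-tg replicate 3. Gsr was also lost without EIIa-ctl replicate 2 (adjusted p = 0.0570). With a heart left out the log2 fold change lay between 1.80 and 2.29 for Srxn1, 1.73 and 2.10 for Hmox1, 0.79 and 1.01 for Gclc, 0.68 and 0.87 for Gclm, 0.65 and 0.81 for Txnrd1, and 0.37 and 0.56 for Gsr. The range was wider for genes that were not called, from 1.07 to 2.24 for Slc7a11 and from 0.36 to 0.90 for Nqo1.

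In Myh6-tg hearts Hmox1, Gclc, Gclm, Srxn1 and Gsr were called whichever heart was left out. Txnrd1 was lost without Myh6-ctl replicate 1, Myh6-ctl replicate 3, Myh6-tg replicate 2 or Myh6-tg replicate 3, with adjusted p between 0.0524 and 0.0668. Slc7a11 was kept only without Myh6-tg replicate 3, and without Myh6-tg replicate 1 its log2 fold change was 1.96 (edgeR adjusted p = 0.0631). Groups that did not overlap in normalised CPM were found for 9 of the 10 genes in EIIa-tg hearts, all but Keap1, where 20.3% of tested genes were higher without overlap. In Myh6-tg hearts there were 7, where 20.6% of tested genes were higher without overlap.

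Whether the models differed was tested for each gene over all 12 hearts, by subtracting the EIIa-tg change from the Myh6-tg change. Of the 10 genes 2 were called, both with the larger change in Myh6-tg hearts, where 1.65% of 15929 genes were called in that direction. Gclc differed by 1.59 (SE 0.32, edgeR adjusted p = 0.0190) and Gclm by 1.25 (SE 0.23, edgeR adjusted p = 0.0134). Gclm was called whichever heart was left out, and Gclc was lost without EIIa-ctl replicate 1, EIIa-tg replicate 1 or EIIa-tg replicate 2, with adjusted p between 0.0531 and 0.0546. For Hmox1 and Srxn1 the differences were 0.13 (95% interval -0.87 to 1.14) and -0.04 (-0.83 to 0.74), and neither was called. The Srxn1 value changed sign on the FPKM scale, to 0.20 with a pseudocount of 1. Gsr differed by 0.56 (adjusted p = 0.155) and Txnrd1 by 0.59 (adjusted p = 0.272), neither of them called by edgeR. Without Myh6-tg replicate 1 the number called rose from 2 to 4, as Txnrd1 (0.81, adjusted p = 0.0135) and Nqo1 (-1.66, adjusted p = 0.0157) were added in opposite directions. Age, the reach of the Cre, the start of transgene expression, tamoxifen and a Cre in the controls differ together between the models. They cannot be told apart.

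The control groups were compared in the same fit, which shares its controls with the comparisons above. None of the 10 genes was called (edgeR, 0 of 10, with 3 at an unadjusted p under 0.05, against 10.1% of all genes), where 0.0251% of all genes were called, and DESeq2 called 2. These were Hmox1 and Srxn1, which had log2 differences of 1.46 (SE 0.33, edgeR adjusted p = 0.141) and 1.28 (SE 0.26, edgeR adjusted p = 0.119) between Myh6-ctl and EIIa-ctl hearts. In normalised CPM all Myh6-ctl hearts exceeded all EIIa-ctl hearts for 5 of the 10 genes, Hmox1, Srxn1, Nqo1, Gclc and Txnrd1, as for 8.76% of all genes. Keap1 was lower in all Myh6-ctl hearts, and the share of all genes lower without overlap was not counted. Without Myh6-ctl replicate 1 Hmox1 was called by edgeR too (1.80, adjusted p = 0.0170), which made 1 gene of the 10. Age, Cre line and oil injection differ between the control groups and cannot be told apart.

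On the FPKM scale, which allows genes to be compared per length, Nfe2l2 led in EIIa-ctl hearts with 32.8 ± 1.88 (SD, n = 3), followed by Nqo1 with 22.9 ± 3.13, Txnrd1 with 14.5 ± 1.13 and Keap1 with 11.6 ± 0.449. Neighbours in this part of the order did not overlap, whereas Hmox1 (8.01), Gsr (6.97), Srxn1 (6.76) and Gclm (5.45) overlapped one another in sequence. Gclc had 4.01 and Slc7a11 0.0175. In Myh6-tg hearts the order was another. Hmox1 led with 121 ± 11.4 FPKM, above every heart's value for the next gene, Srxn1, with 81.3 ± 14.2, and from there down to Gsr with 22.2 each gene overlapped its neighbour. Nfe2l2 was the fifth gene there with 46.7 ± 11.6, Keap1 had 14.2 ± 1.23, and Slc7a11 stayed the lowest with 0.223.

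Across the 12 hearts the 6 genes called in both models moved together in log2 CPM, with Pearson correlations between 0.859 and 0.974. Nfe2l2 mRNA correlated with these 6 genes by between 0.0697 and 0.294. The 6 genes were picked by their calls in these same hearts, which favours high correlations among them. Nqo1, called by edgeR in neither model, correlated with them by between -0.135 and 0.295. These are descriptions over hearts that share 4 groups and a scaling. The genes most like Nfe2l2 in this measure, among 15994 genes and over 12 hearts, were NewGene_2167 (0.951), Rps27l (0.951), Slc25a2 (0.925), Ptger4 (0.921) and Hist1h3g (0.920).

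The neighbours of these genes in the pathway were read from 7 lists with 104 genes in all, of which 101 were tested in each model, though not the same 101. In EIIa-tg hearts 32 were called higher and 11 lower, where 8.65% of all genes were called higher and 8.3% lower, and in Myh6-tg hearts 17 higher and 15 lower, where 8.96% and 9.38% were. Of these, 14 were higher in both models, 9 lower in both and 0 in opposite directions. The EIIa numbers depend on the same hearts as above, and fell from 43 called genes to 0 without EIIa-ctl replicate 1, EIIa-ctl replicate 3 or EIIa-tg replicate 1 (55, 52 and 54 with an unadjusted p under 0.05) and to 5 without EIIa-tg replicate 3. In Myh6-tg hearts the 32 called genes became 10, 18 and 21 without Myh6-ctl replicates 1, 2 and 3, and 49, 17 and 14 without Myh6-tg replicates 1, 2 and 3.

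**Figure D3:**
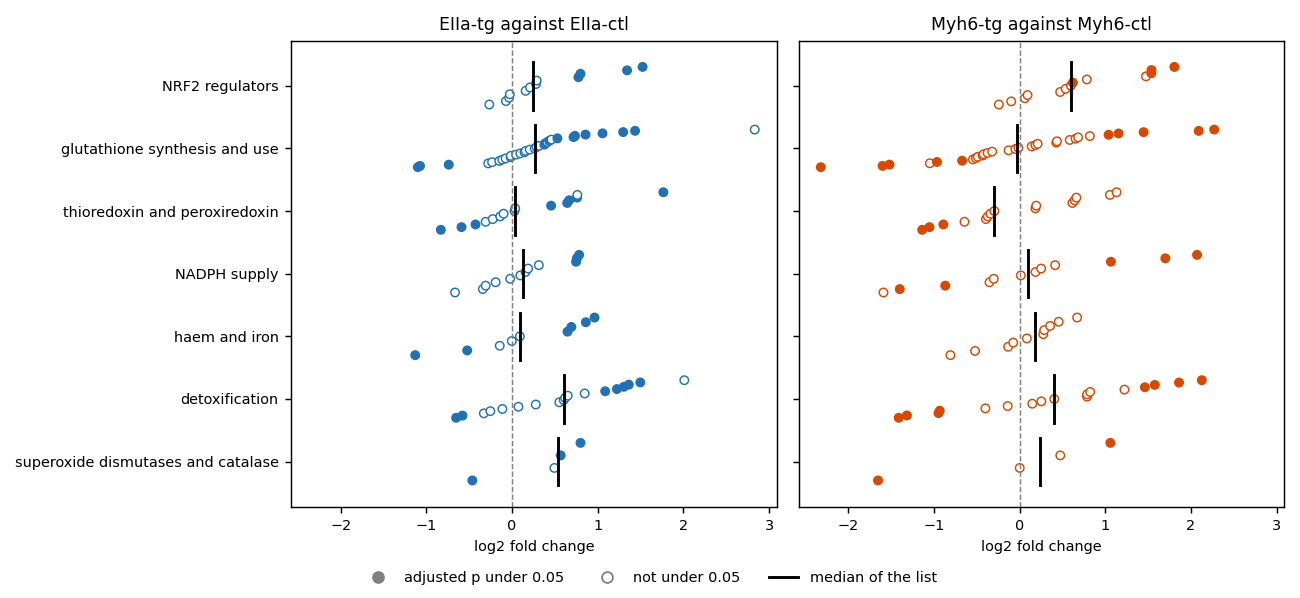
Log2 fold change (horizontal axis) of each gene in 7 lists of the NRF2 pathway, in EIIa-tg (left) and Myh6-tg (right) hearts against their own controls, with filled points for an adjusted p under 0.05 and a black bar at the median of the list. Regulators of NRF2 called in either model all lie to the right of 0, whereas most other lists hold called genes on both sides.

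Among the regulators of NRF2, 4 were called higher and 0 lower in each model, of 12 tested in EIIa-tg and 13 in Myh6-tg hearts. Of all genes 8.65% were called higher and 8.3% lower in EIIa-tg, and 8.96% and 9.38% in Myh6-tg hearts. Sqstm1, which encodes the autophagy receptor p62, had 375, 399 and 352 normalised CPM in EIIa-ctl and 1207, 785 and 1258 in EIIa-tg hearts, whereas Myh6-ctl hearts had 446, 941 and 605 and Myh6-tg hearts 1782, 1999 and 2007. It rose by nearly the same amount in both, 1.52 (SE 0.18, edgeR adjusted p = 0.0135) and 1.54 (SE 0.31, edgeR adjusted p = 0.0166) on the log2 scale. The small MAF genes, whose proteins pair with NRF2, also rose. Maff had log2 fold changes of 1.34 and 1.54 (edgeR adjusted p = 0.0135 and 0.00889) and Mafk of 0.80 and 1.81 (adjusted p = 0.0297 and 0.00370), while Mafg was called in EIIa-tg hearts only (0.77, adjusted p = 0.0166, against 0.60 and adjusted p = 0.124). Cul3, the cullin of the KEAP1 ligase, rose in Myh6-tg hearts (0.62, adjusted p = 0.0426) and not in EIIa-tg hearts (-0.07), and this difference between models was called (0.69, edgeR adjusted p = 0.0459). Bach1, a repressor of the same elements, was called in neither model (0.21 and -0.10).

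Of the genes of glutathione synthesis and use, 9 of 31 were called higher and 3 lower in EIIa-tg hearts (all genes 8.65% and 8.3%). In Myh6-tg hearts 5 of 30 were called higher and 5 lower (all genes 8.96% and 9.38%). Slc3a2, the partner chain of Slc7a11, rose in both, by 0.86 and 1.15 on the log2 scale. Gss, the glutathione synthetase that follows Gclc and Gclm, rose by 0.53 and 1.04 (adjusted p = 0.0334 and 0.0332), and Gpx3, a secreted glutathione peroxidase, by 1.44 and 2.27 (adjusted p = 0.0166 and 0.0196). Replicate 1 was the highest Myh6-tg heart for Gss (40.4 normalised CPM against 21.0 and 23.1) and Gpx3 (2710 against 932 and 830). Among glutathione transferases the directions were mixed. Gsta4 rose in both models, by 0.73 and 1.45 (adjusted p = 0.0185 and 0.0143), and Gsta3 in EIIa-tg hearts (1.30, adjusted p = 0.0135), with -0.49 in Myh6-tg hearts that was not called. Gstk1, whose product is found in mitochondria and peroxisomes, fell in both, by 1.08 on the log2 scale in EIIa-tg (adjusted p = 0.0410) and by 2.32 in Myh6-tg hearts (adjusted p = 0.00941). Chac1, which degrades glutathione, had 1.72, 4.69 and 1.88 normalised CPM in Myh6-ctl and 12.1, 12.1 and 11.0 in Myh6-tg hearts (log2 fold change 2.09, edgeR adjusted p = 0.0146), with -0.11 in EIIa-tg hearts. The difference between models for Chac1, 2.21 (SE 0.51), was called (edgeR adjusted p = 0.0320).

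Of 15 thioredoxin and peroxiredoxin genes, 5 were called higher and 3 lower in EIIa-tg hearts (all genes 8.65% and 8.3%). In Myh6-tg hearts 0 were called higher and 3 lower (all genes 8.96% and 9.38%). The 3 genes that fell were the same in both models, Txn2, Txnrd2 and Prdx3, and their proteins are the mitochondrial thioredoxin, its reductase and a mitochondrial peroxiredoxin. Prdx5, whose product is also found in mitochondria, was called in neither (-0.31 and -0.37). Prdx3 had 326, 267 and 312 normalised CPM in EIIa-ctl and 163, 211 and 134 in EIIa-tg hearts, whereas Myh6-ctl hearts had 262, 251 and 169 and Myh6-tg hearts 144, 99.6 and 85.3. It fell by 0.83 (adjusted p = 0.0227) and 1.05 (edgeR adjusted p = 0.0329) on the log2 scale. Txn2 fell by 0.59 and 1.14 (adjusted p = 0.0405 and 0.0200), and Txnrd2, against the direction of Txnrd1, by 0.43 and 0.89 (adjusted p = 0.0364 and 0.0271). Genes called higher in EIIa-tg hearts were Txn1 (0.67), Prdx1 (0.46), Prdx4 (0.64), Prdx6 (0.76) and Txnip (1.77), an inhibitor of thioredoxin. In Myh6-tg hearts these were not called, with 0.66 for Txn1, -0.30 for Prdx1, 1.05 for Prdx4, 1.13 for Prdx6 and 0.64 for Txnip, and no difference between models was called in this list.

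Of 13 genes of NADPH supply, 12 were tested in each model, and the symbol Nnt was left out because 2 loci carry it. The 3 called higher were the same in both models, G6pdx, Pgd and Taldo1 of the pentose phosphate pathway, where 8.65% and 8.96% of all genes were. Taldo1, transaldolase, had 91.6, 100 and 96.5 normalised CPM in EIIa-ctl and 152, 132 and 214 in EIIa-tg hearts, whereas Myh6-ctl hearts had 89.7, 156 and 90.4 and Myh6-tg hearts 394, 513 and 502. It rose by 0.78 (adjusted p = 0.0233) and 2.07 (edgeR adjusted p = 0.00516), G6pdx by 0.76 and 1.07 (adjusted p = 0.0270 and 0.0212) and Pgd by 0.75 and 1.70 (adjusted p = 0.0300 and 0.00858). Me3 and Nadk2, both with mitochondrial products, fell in Myh6-tg hearts by 1.40 (adjusted p = 0.0467) and 0.87 (adjusted p = 0.0116), and Nadk2 differed between models (-1.03, edgeR adjusted p = 0.0217).

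Beside Hmox1, 4 of 9 genes of haem and iron were called higher and 2 lower in EIIa-tg hearts (all genes 8.65% and 8.3%). In Myh6-tg hearts edgeR called 0 of 10, where 8.96% of all genes were called higher and 9.38% lower. Ftl1, the ferritin light chain, rose by 0.96 (adjusted p = 0.0166), Blvrb, a biliverdin reductase, by 0.86 (adjusted p = 0.0242) and Fth1 by 0.69 (edgeR adjusted p = 0.0288). Fech, the last enzyme of haem synthesis, fell by 0.52 on the log2 scale (adjusted p = 0.0261). None of the 10 genes had a called difference between models. Erythroid markers moved too, since 6 of them summed to between 1543 and 2608 normalised CPM in EIIa-ctl and 198 and 1271 in EIIa-tg hearts, whereas Myh6-ctl hearts had between 5222 and 8152 and Myh6-tg hearts between 1867 and 3453. Their part in the haem genes was not tested.

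Of the detoxification genes besides Nqo1, 5 of 18 were called higher and 2 lower in EIIa-tg hearts (all genes 8.65% and 8.3%). In Myh6-tg hearts 4 of 17 were called higher and 4 lower (all genes 8.96% and 9.38%). Esd, an esterase, rose in both (1.36 and 2.13, adjusted p = 0.0135 and 0.0111), as did Akr1b8, an aldo-keto reductase (1.22 and 1.46, adjusted p = 0.0323 and 0.0131) and the exporter gene Abcc3 (1.09 and 1.58, adjusted p = 0.0316 and 0.0200). Ephx1 (1.30, adjusted p = 0.0135) and Osgin1 (1.50, adjusted p = 0.0166) were called in EIIa-tg hearts, and Aldh1a1 in Myh6-tg hearts (1.86, edgeR adjusted p = 0.0101). Nqo2, the paralogue of Nqo1, fell in both models and by 1.41 on the log2 scale in Myh6-tg hearts (adjusted p = 0.0109).

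Of 4 genes of superoxide dismutases and catalase, 2 were called higher and 1 lower in EIIa-tg hearts (all genes 8.65% and 8.3%). In Myh6-tg hearts 1 was called higher and 1 lower (all genes 8.96% and 9.38%). Sod2, the mitochondrial enzyme, fell by 0.46 in EIIa-tg (adjusted p = 0.0444) and by 1.65 in Myh6-tg hearts (edgeR adjusted p = 0.00949), where it had 490, 490 and 306 normalised CPM in controls and 170, 134 and 104 in transgenic hearts. Sod3, the extracellular enzyme, rose by 0.57 (adjusted p = 0.0393) and 1.06 (adjusted p = 0.0273). Catalase (Cat) rose in EIIa-tg hearts (0.80, edgeR adjusted p = 0.0194), and Sod1 was called in neither model.

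Markers of cell types moved with these genes and are given as measured. Cardiomyocyte markers summed to between 41996 and 50712 normalised CPM in EIIa-ctl and 20712 and 36604 in EIIa-tg hearts, whereas Myh6-ctl hearts had between 32134 and 43447 and Myh6-tg hearts between 9260 and 29956, with 2 and 5 of 8 called lower. Macrophage markers, given for EIIa hearts beside Hmox1, summed to between 971 and 1584 in Myh6-ctl and 1145 and 2547 in Myh6-tg hearts. All 10 macrophage markers were called higher in EIIa-tg hearts and 0 of 10 in Myh6-tg hearts, where the sums overlapped. Over all tested genes 8.65% and 8.96% were called higher and 8.3% and 9.38% lower in EIIa-tg and Myh6-tg hearts. A difference between models was called for 1 of the 10, lower in Myh6-tg hearts, and EIIa calls depend on single hearts, as above. Fibroblast markers summed to between 1136 and 1486, 1919 and 2821, 1523 and 1892, and 2119 and 4564 in EIIa-ctl, EIIa-tg, Myh6-ctl and Myh6-tg hearts, with 2 and 3 of 6 called higher. Endothelial markers were called lower for 2 of 5 genes in EIIa-tg and 0 of 5 in Myh6-tg hearts, and lymphocyte markers for 0 of 4 and 1 of 6. No marker of these lists was at 0 in a whole group, and their part in the levels of the NRF2 targets was not tested.

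**Figure D4:**
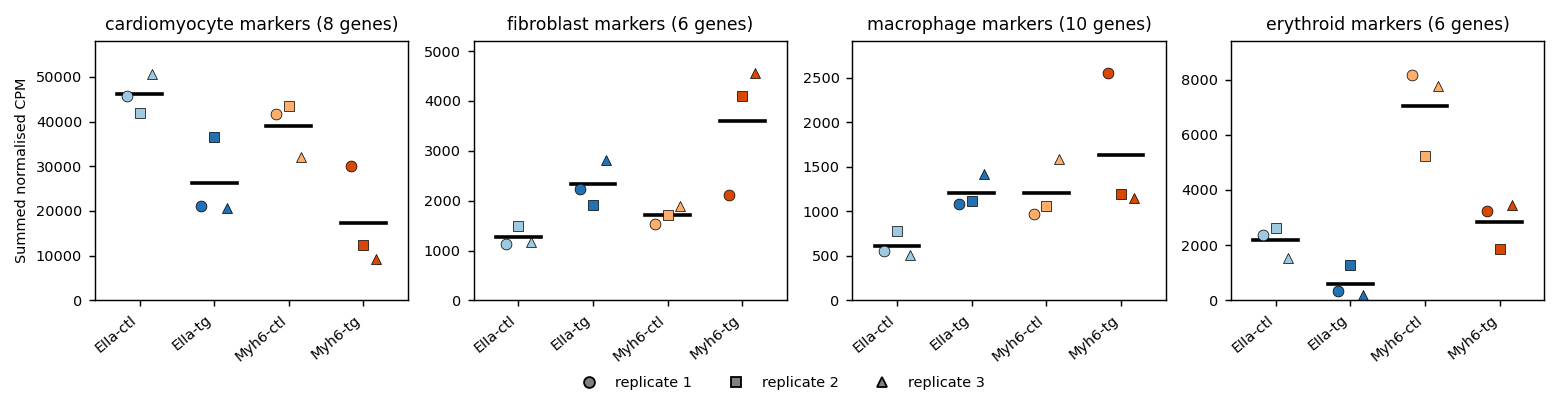
Summed normalised CPM (vertical axes, linear and starting at 0) of cardiomyocyte, fibroblast, macrophage and erythroid markers in each of the 12 hearts, with replicates 1, 2 and 3 as circles, squares and triangles and group means as lines. Cardiomyocyte sums are lowest in Myh6-tg replicates 2 and 3 (12383 and 9260), and macrophage sums overlap between Myh6-ctl and Myh6-tg hearts but not between EIIa-ctl and EIIa-tg hearts.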

How the data were processed

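Heart RNA of 12 mice was sequenced as 150 bp paired-end libraries. The authors mapped reads with HISAT2 to GRCm38 and deposited read counts per gene and FPKM values in a table of 25171 loci; the submitters' notes also list HISAT2 2.0.4, StringTie 2.2.1, DESeq2, GRCm39 and mm10. The counting program, the annotation and the strand setting are not given in the sources used here, so reads of overlapping genes cannot be told apart. The submitters' FPKM values were used only for levels between genes and as an alternative scale. The labels call the hearts of a group biological replicates.

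Counts as deposited were filtered with filterByExpr, scaled by TMM and tested with edgeR 4.0.16 (glmQLFit and glmQLFTest, R 4.3.3), on the 6 hearts of each model, or on all 12 for the difference between models and between control groups. P-values were adjusted by the Benjamini-Hochberg method over all genes tested. DESeq2 1.42.0 and limma 3.58.1, on log2(FPKM + 1) and log2(FPKM + 0.1), were alternatives, as were RLE factors, other filters, removal of mitochondrial genes, a replicate block and leaving out each heart. The test was checked on simulated counts. Named genes were the 10 members, Sqstm1, the genes most correlated with Nfe2l2, and in each wider list and comparison up to 3 called genes with the lowest adjusted p, and further genes were named after their values were seen. The members and lists were chosen with earlier results of these data known. No pair of replicates agreed within sampling noise. Deviations of same-numbered hearts correlated by 0.281, 0.184 and 0.170 in the Myh6 model, so that numbers may pair these hearts. The main fits used no replicate block. With the block in Myh6-tg hearts Slc7a11 was not called (edgeR adjusted p = 0.0549) and Nqo1 turned to -0.21. Positions are from GENCODE M21 and promoters from RefSeq. Total counts of 38343106 to 50969834 set the counting error only.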

Additional observations from a re-analysis of the deposited data

Results flagged for a closer look

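Of the 10 genes, 2 responded differently in the 2 models by a test of the difference itself over all 12 hearts, Gclc with 1.59 and Gclm with 1.25 (change in Myh6-tg minus change in EIIa-tg hearts, log2 scale, edgeR adjusted p = 0.0190 and 0.0134). In the wider lists 5 of 103 genes did so, 2 with a higher and 3 with a lower value, where 1.65% and 2.27% of all genes were called in these directions. The change was larger in Myh6-tg hearts for Cul3, by 0.69 (edgeR adjusted p = 0.0459), and Chac1, by 2.21 (adjusted p = 0.0320). It was lower in Myh6-tg hearts for Mgst3, with -1.76 (adjusted p = 0.0343), Nadk2, with -1.03 (adjusted p = 0.0217), and Aox1, with -1.49 (edgeR adjusted p = 0.0228).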

How the results depend on the processing

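In EIIa-tg hearts the 6 called members, 43 called genes of the wider lists and 2527 called genes became 0, 0 and 1 with a replicate block (edgeR, 7 members at an unadjusted p under 0.05), although same-numbered hearts did not deviate together there (correlations of 0.0482, -0.0725 and -0.0556). They became 0, 0 and 1 with limma on log2(FPKM + 1) without a filter (9 members at an unadjusted p under 0.05), 3, 5 and 227 in a fit of all 12 hearts, and 0, 0 and 0 with replicates 2 and 3 only (edgeR, 7 members and 2824 genes at an unadjusted p under 0.05), an alternative chosen after seeing the data. Replicate 1 as a covariate left 1680 genes. Member calls rose to 8 with limma on filtered FPKM values at either pseudocount, as Nfe2l2 and Nqo1 were added, and to 7 with DESeq2, as Nqo1 was added. Leaving out a heart gave between 0 and 7 members, 0 and 55 wider genes and 0 and 4079 genes. The upper value of each came without EIIa-tg replicate 2, the lowest EIIa-tg heart for the 6 called members. In Myh6-tg hearts the 2805 genes became 4228 with limma on log2(FPKM + 1) and 5049 with all 12 hearts, and leaving out a heart gave between 10 and 49 wider genes and 798 and 4269 genes. The replicate block changed no call of a member in Myh6-tg hearts other than that of Slc7a11.

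For the difference between models, the 5 wider genes became 15 with DESeq2 (1396 genes in all), 8 with the replicate 1 covariate, and 9 and 8 with limma at pseudocounts of 1 and 0.1. Without a filter limma called 1 member, as Gclc was lost (adjusted p = 0.0571), and leaving out a heart gave between 1 and 4 members, 0 and 22 wider genes and 293 and 1727 genes. Between control groups DESeq2 called 2 members, 5 wider genes and 305 genes, no filter 1 wider gene and 14 genes, the block 2 genes, the covariate 8 and limma 7, and leaving out a heart gave between 0 and 1 members, 0 and 2 wider genes and 1 and 31 genes.

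Signs turned as follows. In Myh6-tg hearts Nqo1 was -0.21 with the block or the covariate and -1.02 with replicates 2 and 3 only (between -0.94 and 0.67 with a heart left out), Nfe2l2 was 0.32 on each FPKM scale (-0.20 to 0.069), and Keap1 -0.0094 with DESeq2, -0.0098 with RLE factors and -0.021 without mitochondrial genes (-0.020 to 0.060, and -0.013 to 0.064 in EIIa-tg hearts). In the difference Keap1 was 0.13 and 0.14 and Srxn1 0.20 and 0.11 with limma at pseudocounts of 1 and 0.1, and with a heart left out Keap1 ranged from -0.060 to 0.014, Srxn1 from -0.37 to 0.13 and Hmox1 from -0.21 to 0.45. With limma on log2(FPKM + 1) the median of all genes moved to 0.16 in EIIa-tg, 0.34 in Myh6-tg hearts and 0.16 in the difference, and the percentage of calls that were higher from 51.0 to 78.0, from 48.8 to 78.7 and from 42.1 to 69.1. In the fit of all 12 hearts 77.5% of EIIa calls were higher. The causes were not tested. Slc7a11, with 2 to 28 counts outside Myh6-tg hearts, is limited by depth.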

Other observations

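Nnt, the mitochondrial transhydrogenase that supplies NADPH, was listed at 2 loci, and the sum of their counts was between 15174 and 20783 in EIIa-ctl, 10500 and 17217 in EIIa-tg, 13201 and 17480 in Myh6-ctl and 3709 and 6510 in Myh6-tg hearts. The locus with more counts changed in EIIa-tg replicate 3, Myh6-ctl replicate 1 and Myh6-tg replicate 2, for example from 14401 against 773 counts in EIIa-ctl replicate 2 to 3740 against 6760 in EIIa-tg replicate 3. No test was made, and the cause was not tested.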
